A study of Mus musculus with 4 samples.

Results

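The transcripts described here encode the plasma proteins of blood clotting and of complement that the liver secretes. They were chosen by gene symbol: a list of 43 clotting factors, anticoagulants, fibrinolytic proteins, complement components and complement regulators was matched to the array's probe sets, each a group of short probes for 1 transcript, wherever the platform annotation gave exactly 1 symbol. The match found 53 of the 45101 probe sets, for 39 of the 43 genes. C1s, C3, C5 and Cpb2 had no probe set under those symbols, and the mouse symbols for C1s and C5 are taken up at the end. RNA was taken from mature liver of C57BL/6J mice 48 h after surgery. Both groups had 2 arrays: sham surgery, and partial hepatectomy, in which part of the liver is cut away. No other treatment or allele is named for either group. The design text calls the arrays biological duplicates, without saying how many animals went into each, so the p-values rest on the spread between arrays.

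Clotting runs as a chain of proteases made as inactive precursors. Tissue factor with factor VII starts it, the contact system of factor XII, prekallikrein and kininogen can start it as well, and both routes lead through factor X to thrombin, which turns fibrinogen into fibrin. Antithrombin, heparin cofactor II and the protein C and protein Z systems restrain it, and plasmin dissolves the clot. Complement is a second protease cascade, started by antibody, by mannose-binding lectins or by spontaneous turnover of C3, and it ends in a membrane pore of C5b, C6, C7, C8 and C9. Hepatocytes secrete most of these proteins. Factor VIII comes mainly from endothelial cells and properdin (Cfp) mainly from myeloid cells.

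No member passed the test between sham and hepatectomy. The signals deposited by the authors were raised by an offset of 8.57, put on the log2 scale and compared with limma, a linear model that pools information on the spread across probe sets, with Benjamini-Hochberg adjustment over all 27022 probe sets bright enough to be tested. A gene was called at an adjusted p of 0.05 in its brightest tested probe set. Called members numbered 0 of 39, against 586 of 12560 tested genes, which is 4.67%. The smallest adjusted p of a member was 0.0968, that of Serpina10. At an unadjusted p under 0.05 there were 7 members (17.9%), 5 lower and 2 higher after hepatectomy, against 19.9% of all genes tested (7.47% lower and 12.5% higher). Of all member probe sets 52 were tested and 0 were called, against 3.39% of all probe sets tested. At an unadjusted p under 0.05 there were 10, among them every probe set of C2. The share of all probe sets at that threshold was not counted, so whether 10 is many cannot be said. The probe set not tested was 1 of 5 for Masp1, at signals of 10.2 to 29.3.

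Differences between the groups were small for every member. Log2 fold changes, always hepatectomy minus sham, ran from -0.61 for F8 to 0.41 for Serpina10. Their median was -0.09 over the members and 0.02 over all tested genes, and the median of their absolute size was 0.12 against 0.25. Replicate arrays also lay closer together for the members. The median absolute log2 difference between the sham arrays was 0.16, against 0.21 over all tested genes. Between the hepatectomy arrays it was 0.11 against 0.24. The 95% interval of limma, not adjusted for the number of genes, lay inside a 2-fold change in both directions for 38 of 39 members. For F8 it reached -1.08. The interval lay inside a 1.5-fold change for 29 members. The median standard error was 0.12, and precision is limited by having 2 arrays per group.

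**Figure D1:**
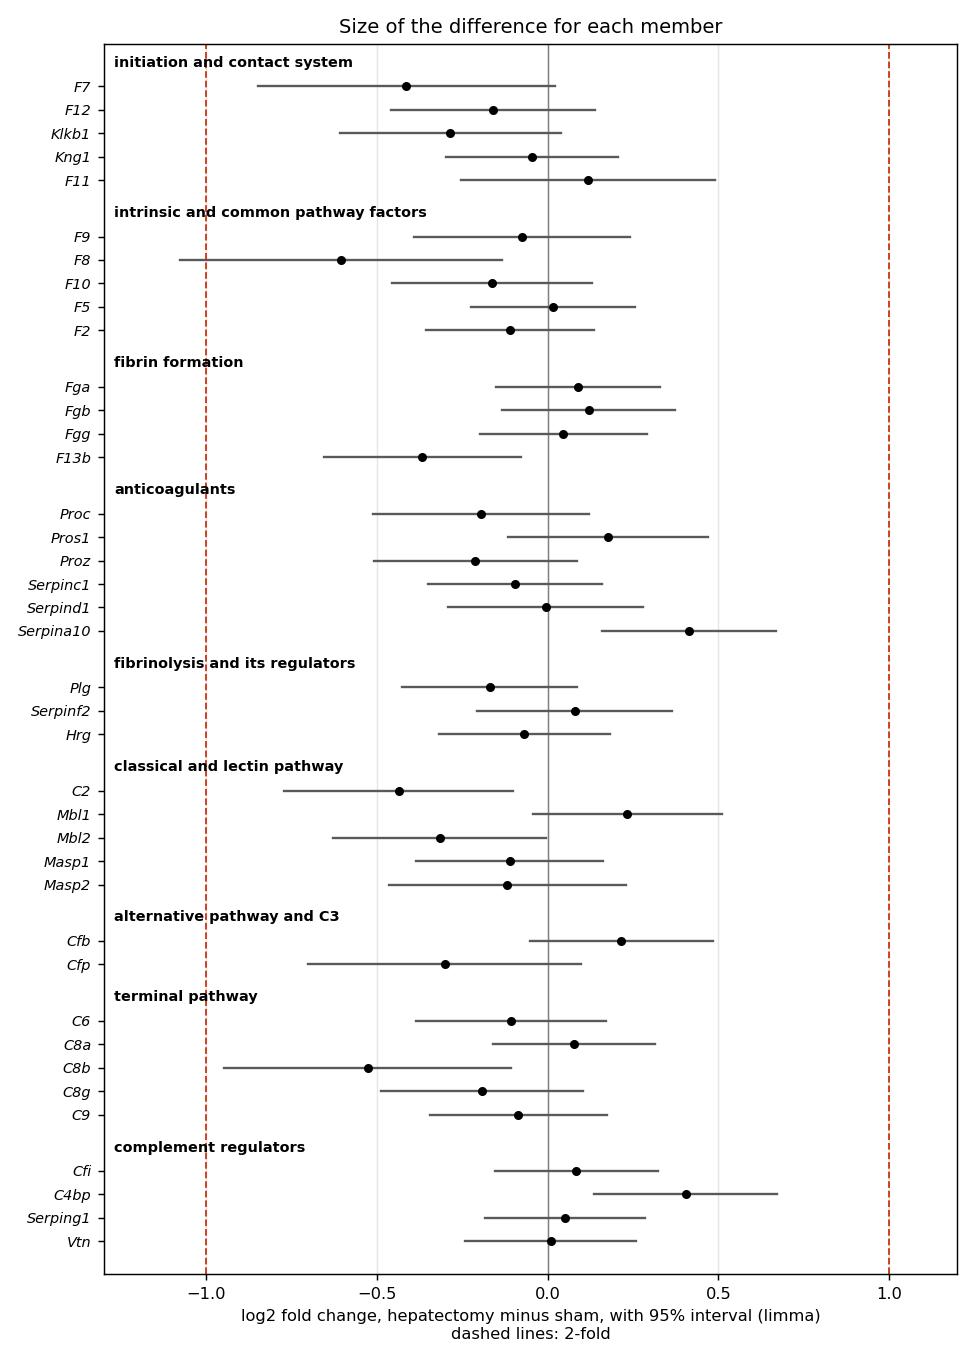
Log2 fold change (hepatectomy minus sham) of the 39 measured members on the horizontal axis, with limma's 95% interval as a bar, 2 arrays per group, members grouped by pathway. Dashed lines mark a 2-fold change, and the bar of F8 alone crosses one of them, at -1.08.

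**Figure D2:**
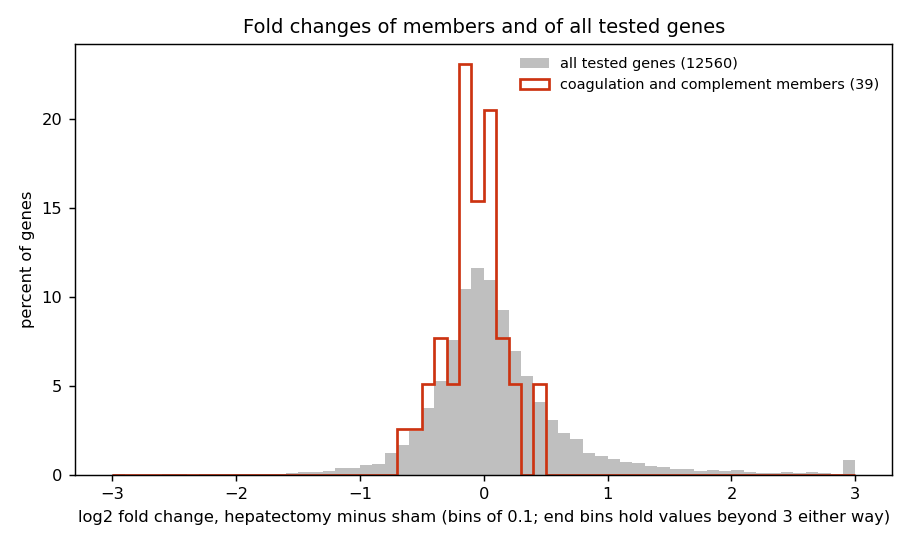
Percent of genes (vertical axis) in bins of 0.1 of the log2 fold change, for the 39 members (red line) and for all 12560 tested genes (grey). Members lie between -0.61 and 0.41, while the grey distribution extends past 3.

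Most members were bright on the array. In mean signal 26 of 39 stood in the brightest 5% of tested genes, 12 had a mean signal above 10000, and the dimmest, F8, stood above 56.8% of tested genes. The highest member signal was 21390, for Fgb, and the highest of any probe set was 31633. A spot near the upper end of its range can understate a true fold, and the part of this in the small differences was not tested. Among the 5430 tested genes at least as bright as F8, 245 were called, or 4.51%. Most members were far brighter than this cut, as the median member stood at the 96.4% mark of tested genes. Signals of different probe sets do not order transcript levels. For the members, arrays of 1 group differed nearly as much as arrays of different groups. The median absolute log2 difference over the members was 0.16 within sham, 0.11 within hepatectomy, and 0.13 to 0.22 for pairs across the groups. Over all tested genes it was 0.21, 0.24, and 0.27 to 0.33.

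The groups did not overlap for 18 members (46.2%), against 51.3% of all tested genes. Of these, 12 lay lower after hepatectomy (30.8%, against 23.2% of all genes) and 6 higher (15.4%, against 28.1%). The negative side held 24 of 39 fold changes. That count was 31 after centring each array on its median and 23 after quantile normalization. With 1 array left out it ran from 21 (without sham replicate 1, and without hepatectomy replicate 1) to 31 (without sham replicate 2).

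Hepatectomy replicate 1 held more signal of adrenal cortex and adipocyte markers than the other 3 arrays. Of 5 tested adrenal cortex markers 0 were called, and the summed signal of the 7 with a probe set was 19632 in hepatectomy replicate 1, 210 in replicate 2 and 181 to 208 on the sham arrays. Of 4 tested adipocyte markers 0 were called, and the sum over 5 was 2434 in that array, 298 in hepatectomy replicate 2 and 97.5 to 209 on the sham arrays. In hepatectomy replicate 2, Adipoq (56.3), Lep (22.6) and Cidec (184) also lay above both sham arrays, while Retn (13.8) and Plin4 (20.9) did not. Of 9 measured hepatocyte markers 0 were called, and their sum was 142560 and 137450 after hepatectomy against 155230 and 131410 after sham surgery. The median member lay 0.12 below the sham mean in hepatectomy replicate 1 and 0.03 below it in replicate 2. On the sham arrays it lay 0.08 above that mean in replicate 1 and 0.08 below it in replicate 2. Hepatectomy replicate 2 thus stood between the sham arrays. Lower than both sham arrays were 20 members in replicate 1 and 14 in replicate 2, and higher than both were 9 and 10. These shares were not counted over all tested genes, so the counts are no result about the members. The part of the other tissues in these values was not tested. In such tissue RNA, fewer cells of a type and less RNA per cell cannot be told apart.

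**Figure D3:**
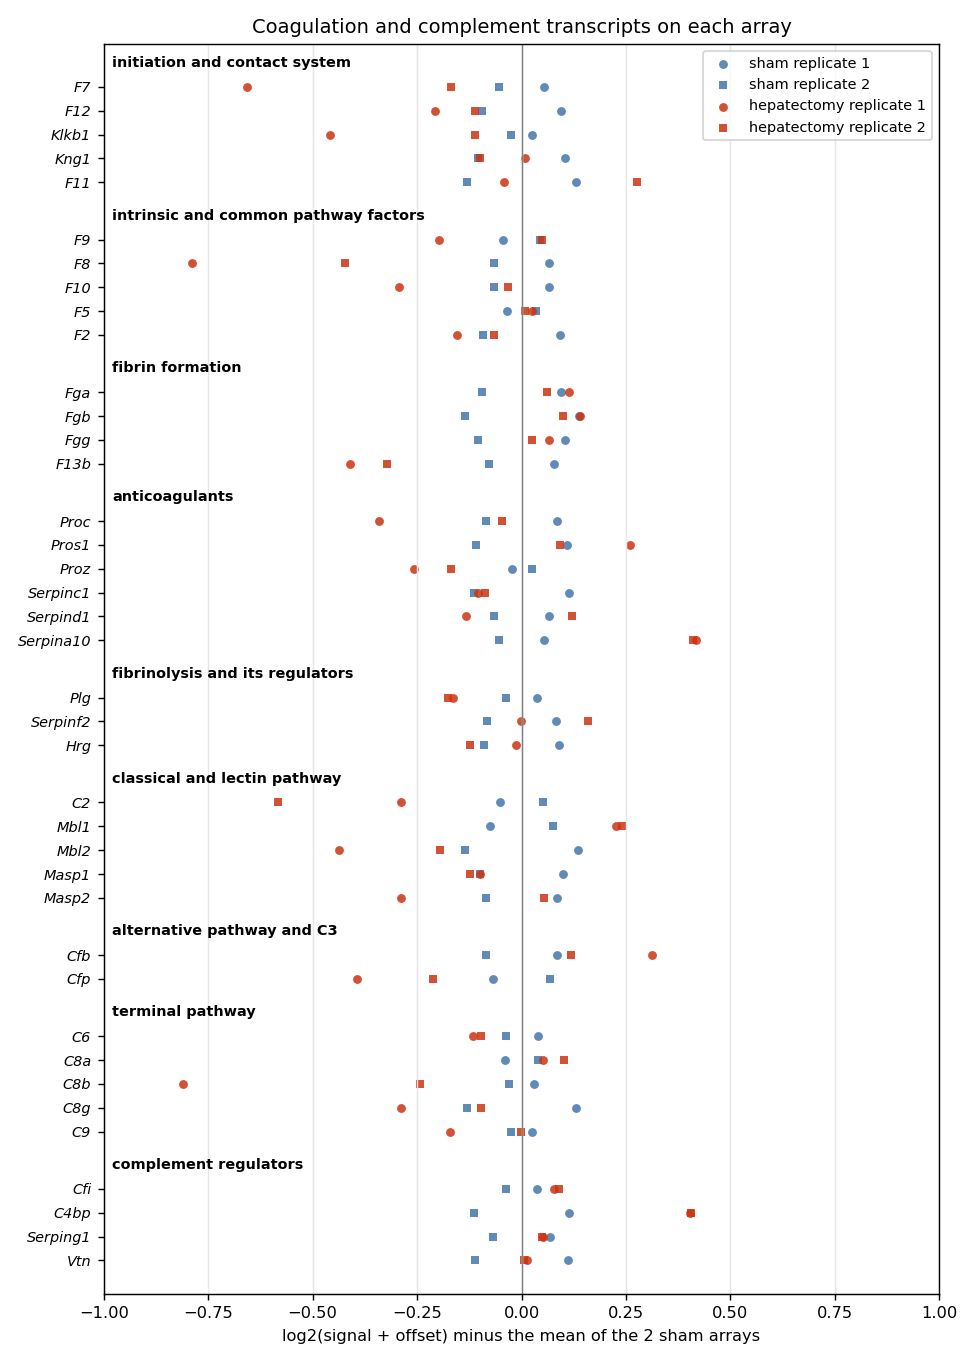
Log2(signal + offset) of each member on each of the 4 arrays, as the difference from the mean of the 2 sham arrays (horizontal axis), by pathway. Circles are replicate 1 and squares replicate 2, sham in blue and hepatectomy in red. F7, F8 and C8b lie furthest left on hepatectomy replicate 1, and both hepatectomy arrays of Serpina10 and C4bp lie to the right of both sham arrays.

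Among the starters of clotting, F7 had the smallest adjusted p. It encodes the protease that pairs with tissue factor. Its signals were 2586 and 2400 after sham surgery and 1575 and 2215 after hepatectomy. Both hepatectomy values were the lower ones, with most of the gap in replicate 1. The log2 fold change was -0.41 ± 0.19 (SE, n = 2 arrays per group; limma adjusted p = 0.327), and it was -0.17 without hepatectomy replicate 1 and -0.66 without replicate 2. Klkb1, the precursor of plasma kallikrein, also lay lower on both arrays, with 7698 and 7438 against 5505 and 7006 (-0.28 ± 0.14, limma adjusted p = 0.366), or -0.11 without hepatectomy replicate 1 and -0.46 without replicate 2. F12, the first protease of the contact system, had a log2 fold change of -0.16, without overlap. Kng1, which encodes kininogen, and F11, the protease that activates factor IX, had values of -0.05 and 0.12 with overlapping groups. The dimmer probe set of Kng1 had -0.12, without overlap (limma adjusted p = 0.686). The contact and initiation genes had a median of -0.16, which was -0.07 without sham replicate 1 and -0.25 without sham replicate 2.

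Within the intrinsic and common pathway, F8 stood apart in size. It encodes the cofactor that factor IX needs to activate factor X. The sham signals were 977 and 892 and the hepatectomy signals 537 and 694. The hepatectomy arrays were both below the sham arrays, by a log2 fold change of -0.61 ± 0.20 (SE, n = 2 arrays per group; limma adjusted p = 0.182). Without hepatectomy replicate 1 the value was -0.42. Of 10 markers of liver sinusoidal endothelium, the cells known as the main source of this factor, 0 were called. Their median was -0.22, and their summed signal was 9733 and 10168 after hepatectomy against 11249 and 12089 after sham surgery. The part of these cells in the F8 value was not tested. The proteases F9, F10 and F2, the last of which is prothrombin, had values of -0.07, -0.16 and -0.11. F5, the cofactor that speeds thrombin formation, had 0.02 (95% interval -0.22 to 0.26). In the brightest probe set of each of these 4 genes the groups overlapped. The dimmer probe sets of F10 had 0.16 and -0.05, with overlap, and that of F5 had -0.12, without overlap.

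The 3 fibrinogen chains kept close to each other. Fga, Fgb and Fgg encode the alpha, beta and gamma chains, which assemble into 1 protein, and in the RefSeq gene table for assembly GRCm38.p6 they are adjacent protein-coding genes on chromosome 3. Promoter sequence is shown for the 3 chains because their values lay close together. Each is the 250 bases before the annotated start from RefSeq (GRCm38.p6), 5′ to 3′ on the gene's strand. Capitals mark matches to the HNF1 half-site GTTAAT, the C/EBP pattern TTGCNNAA and the STAT pattern TTCNNNGAA, searched on both strands, with no overlap between matches. Fga lies at chr3:83025903-83026152 (plus strand), Fgb at chr3:83049864-83050113 (minus strand) and Fgg at chr3:83007474-83007723 (plus strand).
Fga: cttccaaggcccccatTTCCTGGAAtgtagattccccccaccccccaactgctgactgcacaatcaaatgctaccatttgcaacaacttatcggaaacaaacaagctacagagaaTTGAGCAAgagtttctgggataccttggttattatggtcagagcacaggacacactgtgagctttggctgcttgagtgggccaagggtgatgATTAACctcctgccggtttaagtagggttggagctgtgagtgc
Fgb: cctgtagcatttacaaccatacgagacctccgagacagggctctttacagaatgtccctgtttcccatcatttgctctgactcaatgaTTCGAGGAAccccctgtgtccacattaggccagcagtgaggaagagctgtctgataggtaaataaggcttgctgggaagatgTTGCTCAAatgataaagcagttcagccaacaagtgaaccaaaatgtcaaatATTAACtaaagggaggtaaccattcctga
Fgg: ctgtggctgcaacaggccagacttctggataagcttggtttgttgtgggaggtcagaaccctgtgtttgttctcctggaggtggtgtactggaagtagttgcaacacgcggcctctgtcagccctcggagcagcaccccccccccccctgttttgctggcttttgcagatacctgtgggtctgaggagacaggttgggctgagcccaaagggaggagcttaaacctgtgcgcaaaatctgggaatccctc
The Fga and Fgb windows each hold 1 match of every pattern. In Fga the HNF1 letters ATTAAC begin 43 bases before the start, and in Fgb 29 bases before it. The Fgg window holds none of them. A match describes letters, not a bound factor.

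Fibrinogen signals were nearly level between the groups. Fga gave 15175 and 13325 after sham surgery and 15393 and 14838 after hepatectomy. Fgb gave 21353 and 17671 against 21390 and 20825. Fgg gave 15273 and 13239 against 14887 and 14470. For each chain the hepatectomy arrays overlapped the sham arrays, and sham replicate 2 was the lowest of the 4. The log2 fold changes were 0.09, 0.12 and 0.05, each with a standard error of 0.10 to 0.11, and the upper bounds of the 95% intervals were 0.33, 0.37 and 0.29. Without sham replicate 2 all 3 turned slightly negative (-0.01, -0.02 and -0.06). F13b behaved otherwise. It encodes the carrier subunit of factor XIII, which crosslinks fibrin. Its signals were 5984 and 5370 after sham surgery and 4259 and 4534 after hepatectomy, with no overlap (-0.37 ± 0.13 SE, n = 2 arrays per group, limma adjusted p = 0.19).

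The anticoagulants held the largest positive value of the list. Serpina10, the inhibitor that acts on factor X together with protein Z, had signals of 6825 and 6329 after sham surgery and 8782 and 8732 after hepatectomy. The hepatectomy arrays were nearly equal and both above the sham arrays. The log2 fold change was 0.41 ± 0.11 (SE, n = 2 arrays per group; limma adjusted p = 0.0968). Quantile normalization brought it to 0.45 and past the threshold (adjusted p = 0.0293), while median centring gave 0.33 (adjusted p = 0.476). Its probe set is of a kind that may match several transcripts. Proz, the cofactor of this inhibitor, lay on the other side of 0 in its brighter probe set, with 3779 and 3907 against 3215 and 3418 (-0.21, adjusted p = 0.472), while its other probe set gave -0.03 with overlapping groups. Serpinc1 (antithrombin), Serpind1 (heparin cofactor II), Proc (protein C) and its cofactor Pros1 (protein S) had values of -0.10, -0.01, -0.19 and 0.18, all with overlap. For the 7 vitamin K-dependent proteins, F2, F7, F9, F10, Proc, Pros1 and Proz, the brightest probe sets gave 6 negative values, with Pros1 the exception. Their median was -0.16 and 0 were called. Averaging the probe sets of F10 brought its value to -0.02. Negative values made up 47.1% of all tested genes. The median of the 7 was -0.26 without hepatectomy replicate 2 and -0.05 without replicate 1, where F9 was positive as well (0.05).

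In fibrinolysis, Plg, the precursor of plasmin, had signals of 7313 and 6949 against 6360 and 6313. The hepatectomy arrays lay close together below both sham arrays. The log2 fold change was -0.17 ± 0.11 (SE, n = 2 arrays per group; limma adjusted p = 0.511). Serpinf2, the plasmin inhibitor alpha-2-antiplasmin, had 0.08, and Hrg, a histidine-rich glycoprotein that binds plasminogen, had -0.07, both with overlapping groups.

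Complement opened with C2, the protease of the classical and lectin C3 convertase. It was measured by 3 probe sets, and all 3 lay lower on both hepatectomy arrays. The brightest gave 4588 and 4926 after sham surgery and 3892 and 3169 after hepatectomy (-0.44 ± 0.15 SE, n = 2 arrays per group, limma adjusted p = 0.177). The others had values of -0.45 (adjusted p = 0.147) and -0.61 (adjusted p = 0.139). The brightest probe set and the one at -0.61 are of a kind that may match several transcripts. Probe sets of 1 gene on the same arrays are not independent. The value of the brightest was -0.58 without hepatectomy replicate 1 and -0.29 without replicate 2 (adjusted p = 0.102 and 0.396).

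The lectin recognition proteins parted in direction. Mbl1 and Mbl2 encode mannose-binding lectins A and C. Mbl1 gave 4986 and 5535 after sham surgery and 6143 and 6208 after hepatectomy, while Mbl2 gave 12028 and 9979 against 8089 and 9571. Neither pair of groups overlapped. The log2 fold changes were 0.23 ± 0.12 and -0.32 ± 0.14 (SE, n = 2 arrays per group; limma adjusted p = 0.391 and 0.295). Without hepatectomy replicate 1 the value of Mbl2 was -0.19. Their proteases had values near 0: -0.11 for Masp1 and -0.12 for Masp2, with overlap. The probe sets of Masp2 did not give the same picture, as the second had 2501 and 2103 against 1544 and 1757 (-0.48, adjusted p = 0.193). The 3 other tested probe sets of Masp1 had values from 0.10 to 0.25, with the opposite sign to the brightest.

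Of the alternative pathway, Cfb, the protease factor B, had signals of 11422 and 10138 after sham surgery and 13359 and 11691 after hepatectomy. Both hepatectomy signals were the higher ones, and the smaller exceeded the larger sham signal only slightly. The log2 fold change was 0.22 ± 0.12 (SE, n = 2 arrays per group; limma adjusted p = 0.415). It was 0.12 without hepatectomy replicate 1 and 0.13 without sham replicate 2. Cfp, which stabilises the convertase, gave 1218 and 1340 against 971 and 1102 (-0.30, adjusted p = 0.445). Its dimmer probe set had -0.62 (adjusted p = 0.386). Of 10 markers of Kupffer cells and macrophages, 1 rose (Marco, a scavenger receptor) and 1 fell (Csf1r, the receptor of macrophage colony stimulating factor). Of the 10 values 4 were positive and 6 negative, with a median of -0.13. The summed signal of the 10 was 18231 and 19290 after sham surgery and 19770 and 18165 after hepatectomy. Within that sum Marco gave 241 and 172 after sham surgery and 3194 and 1670 after hepatectomy. The part of these cells in the Cfp value was not tested.

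In the terminal pathway 4 of 5 measured members had negative values, and C8b, the beta chain of C8, had the lowest. Its signals were 7045 and 6759 after sham surgery and 3931 and 5829 after hepatectomy. The groups did not overlap, and hepatectomy replicate 1 stood well below replicate 2. The log2 fold change was -0.53 ± 0.18 (SE, n = 2 arrays per group; limma adjusted p = 0.193). It was -0.24 without hepatectomy replicate 1 (adjusted p = 0.53), and it was called without replicate 2 (-0.81, adjusted p = 0.0122). The other chains of C8, C8a and C8g, had 0.08 and -0.19, and C6 and C9, which join the same pore, had -0.11 and -0.09.

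The regulators all had values above 0 under the authors' scaling, in the brightest probe set of each. C4bp, which encodes the binding protein that helps factor I inactivate C4b, gave 9121 and 7782 after sham surgery and 11139 and 11157 after hepatectomy. The hepatectomy arrays were almost equal and stood above both sham arrays, which differed from each other by more. The log2 fold change was 0.40 ± 0.12 (SE, n = 2 arrays per group; limma adjusted p = 0.12). It passed after quantile normalization (0.44, adjusted p = 0.0261) and was 0.32 after median centring (adjusted p = 0.483). Cfi, the protease that cleaves C3b and C4b, Serping1, the inhibitor of C1, and Vtn, vitronectin, had 0.08, 0.05 and 0.01. These last 3 turned negative after median centring. The dimmer probe set of Vtn had -0.02 under the authors' scaling, with overlap.

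The neighbouring genes of complement were looked at after their unlike values had been seen. C8b and C8a are neighbours on chromosome 4, and Cfb and C2 on chromosome 17, with 0 protein-coding genes between them in the RefSeq table. The C8b signal relative to C8a, set to 0 at the sham mean, was 0.07 and -0.07 after sham surgery and -0.86 and -0.35 after hepatectomy (log2). C2 relative to Cfb was -0.14 and 0.14, then -0.60 and -0.70. In both pairs the hepatectomy arrays lay below the sham arrays. The mean differences were -0.60 and -0.65. They are a description, since an exact permutation test of 2 against 2 arrays cannot go below p = 0.333. For C8b and C8a the larger value lay in hepatectomy replicate 1, the array with the most adrenal and adipocyte signal. The part of those tissues in it was not tested. Among other neighbours on chromosome 8, F7, F10 and Proz were all negative (-0.41, -0.16 and -0.21), and F11 and Klkb1 had 0.12 and -0.28.

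**Figure D4:**
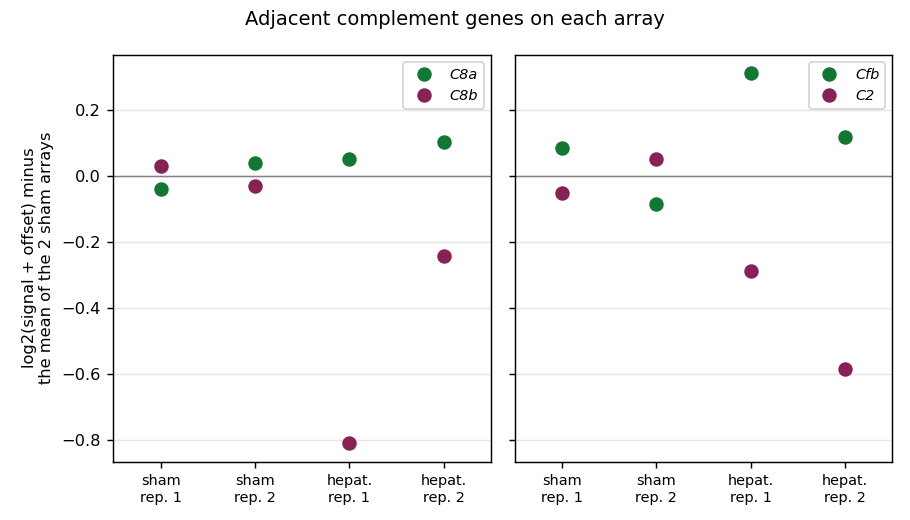
Log2(signal + offset) minus the mean of the 2 sham arrays (vertical axis) on each of the 4 arrays (horizontal axis), for the adjacent genes C8a and C8b (left) and Cfb and C2 (right). On both hepatectomy arrays C8b lies below C8a and C2 below Cfb.

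The windows before C8a, C8b and C4bp are shown as those of neighbours with unlike values and of the complement gene with the highest log2 fold change, with the same source, length and capitals as for fibrinogen. C8a lies at chr4:104876399-104876648 (minus strand), C8b at chr4:104766067-104766316 (plus strand) and C4bp at chr1:130661619-130661868 (minus strand).
C8a: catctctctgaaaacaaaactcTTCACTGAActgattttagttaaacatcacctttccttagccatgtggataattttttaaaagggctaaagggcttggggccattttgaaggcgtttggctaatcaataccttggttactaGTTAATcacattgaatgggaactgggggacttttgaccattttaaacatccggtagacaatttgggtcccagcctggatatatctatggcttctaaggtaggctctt
C8b: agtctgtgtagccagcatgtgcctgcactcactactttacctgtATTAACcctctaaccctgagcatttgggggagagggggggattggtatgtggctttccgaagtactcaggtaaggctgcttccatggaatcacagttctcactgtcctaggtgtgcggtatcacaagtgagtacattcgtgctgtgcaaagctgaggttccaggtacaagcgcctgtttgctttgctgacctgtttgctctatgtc
C4bp: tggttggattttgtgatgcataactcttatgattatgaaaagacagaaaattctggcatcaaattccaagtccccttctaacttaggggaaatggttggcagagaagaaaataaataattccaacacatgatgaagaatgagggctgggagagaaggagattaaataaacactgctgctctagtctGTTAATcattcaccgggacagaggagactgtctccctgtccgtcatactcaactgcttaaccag
All 3 hold an HNF1 half-site, 107, 206 and 64 bases before the start, and C8a alone holds a STAT pattern. Windows of 300 bases, from 250 before to 50 after the start, were found for 30 of the 39 measured members (31 windows). The HNF1 half-site was in 10 of these (32.3%) and in 7.1% of all 32851 promoter windows. The C/EBP pattern was in 25.8% against 10.8%, and the STAT pattern in 22.6% against 8.3%. The HNF4 core CAAAGTCC, an NF-kB pattern and the E-box CACGTG, which were in 1.42%, 5.56% and 7.15% of all windows, were in 0 of the 31. These shares describe letters in the windows and were not tested.

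Other genes of both systems were looked at from a list of 71 receptors, inhibitors, initiators and processing enzymes. Of the 56 with a probe set 46 were tested, and 4 passed (8.7%): Thbd, Anxa2 and Cd93 rose and Colec10 fell. Of all tested genes 3.57% were called higher and 1.09% lower.

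Thbd showed the largest rise of the 4. It encodes thrombomodulin, the endothelial receptor that turns thrombin toward activation of protein C. Its signals were 535 and 519 after sham surgery and 3447 and 2619 after hepatectomy. The groups lay far apart, with a log2 fold change of 2.49 ± 0.19 (SE, n = 2 arrays per group; limma adjusted p = 0.000722). It stayed called in each alternative run, including without each array in turn. Procr, the endothelial protein C receptor, gave 115 and 70.3 against 261 and 127, with a log2 fold change of 0.96 ± 0.40 (adjusted p = 0.284), or 0.46 without hepatectomy replicate 1. Proc itself had -0.19.

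Anxa2, an annexin that binds plasminogen and its activator at cell surfaces, rose from 700 and 766 to 4367 and 2063 (2.02 ± 0.31 SE, n = 2 arrays per group, limma adjusted p = 0.0132). Hepatectomy replicate 1 had the higher of its 2 raised signals. A much dimmer tested probe set of Anxa2 lay lower after hepatectomy, with 30.6 and 36.0 against 17.4 and 29.5 (-0.41, limma adjusted p = 0.699). Cd93, a receptor of endothelial and myeloid cells once taken for a C1q receptor, rose from 463 and 542 to 1766 and 1217 (1.53 ± 0.23, adjusted p = 0.0111). Colec10, a collectin that starts the lectin pathway, fell from 796 and 1173 to 222 and 370 (-1.72 ± 0.30, adjusted p = 0.021). Its partner Colec11, named after its value was seen, gave 1698 and 2760 against 885 and 1249 (-1.04 ± 0.26, adjusted p = 0.0834), or -0.69 without sham replicate 2. Without sham replicate 1 the calls of Anxa2, Cd93 and Colec10 were lost (adjusted p = 0.0776, 0.0922 and 0.0589), as were those of Anxa2 and Colec10 without sham replicate 2 (adjusted p = 0.0549 and 0.149). All 3 were also lost without the filter (adjusted p = 0.074, 0.051 and 0.0906) and without a trend in the model (0.134, 0.106 and 0.135), and the mean of the probe sets of Anxa2 had 0.81 (adjusted p = 0.0911).

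Markers of other cells differed between the groups beside these genes. Of 3 tested neutrophil markers out of 8 with a probe set, 2 rose (S100a8 and S100a9), and the sum over the 8 was 405 to 499 after sham surgery and 9940 and 3588 after hepatectomy. The granule genes Mpo, Camp, Ngp and Ltf stayed under the floor set by bacterial control probe sets (20.4) on all 4 arrays. Of 10 stellate cell markers 3 rose (Acta2, Col1a1 and Col3a1) and 0 fell. In all, 7 had positive and 3 negative values, the latter being Lrat (-0.75, adjusted p = 0.258), Reln (-0.46, adjusted p = 0.299) and Dcn (-0.12), with a sum over the 10 of 9120 and 12035 against 14950 and 13029. Of 7 lymphocyte markers 0 were called, all 7 had negative values, and their sum was 435 to 506 against 204 and 250. The part of these cells in the calls was not tested.

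**Figure D5:**
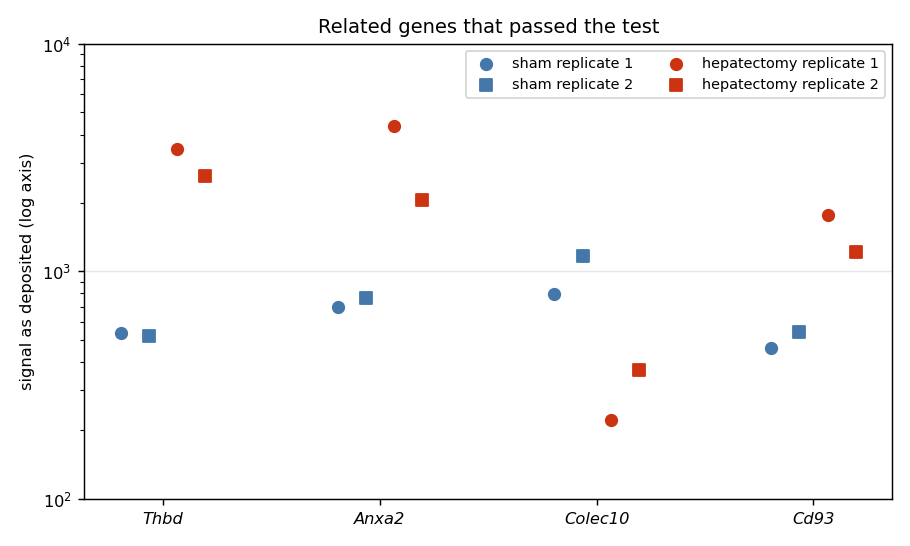
Signal as deposited (vertical log axis) on each of the 4 arrays for Thbd, Anxa2, Colec10 and Cd93, with sham in blue, hepatectomy in red, circles for replicate 1 and squares for replicate 2. Thbd runs from 519 to 3447, and in none of the 4 genes do the groups overlap.

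For the uncalled genes, the smallest adjusted p of each role is given. Among other clotting proteins it was that of F13a1, the catalytic subunit of factor XIII (1.83 ± 0.64, limma adjusted p = 0.194). Its signals were 25.6 and 57.7 against 333 and 75.5, and without hepatectomy replicate 1 the value was 0.82. Among plasminogen activators and their inhibitors and receptors it was that of Plaur, the urokinase receptor (1.55, or 0.81 without hepatectomy replicate 1, adjusted p = 0.185 with all arrays), and among 6 genes of the vitamin K cycle and factor secretion that of Mcfd2, a cargo receptor subunit for factors V and VIII (0.21, adjusted p = 0.475, or 0.13 without hepatectomy replicate 2). C1ra, a protease of the C1 complex, gave 3365 and 3509 against 2354 and 2356 (-0.54 ± 0.13, adjusted p = 0.0765). C5ar1, the C5a receptor, had 1.28 (adjusted p = 0.275), or 0.33 without hepatectomy replicate 1, and Cd59a, which blocks the membrane pore, had -0.52 (adjusted p = 0.141). Without hepatectomy replicate 2, which leaves replicate 1 alone in its group, Procr, F13a1, Plaur and C5ar1 had values of 1.45, 2.85, 2.29 and 2.24. C5 and C1s are carried on the array under the mouse symbols Hc and C1s1. Hc gave 9739 and 9677 against 10073 and 9890 (0.04 ± 0.10, adjusted p = 0.894), and C1s1 gave 7216 and 7010 against 5827 and 6118 (-0.25 ± 0.11, adjusted p = 0.314).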

How the data were processed

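Total RNA of 4 mouse liver arrays was labelled with biotin, per the labels' protocols. The authors deposited 1 signal intensity per probe set, and the submitters' processing notes name GCOS 1.4. No settings, detection calls or scan times were used. The mean of every array after trimming 2% at each end was 500, so arrays had been scaled to a common mean.

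Of 45101 probe sets 64 controls were left out. The platform annotation gave 34945 of the rest 1 symbol and 932 several. Intensities were turned to log2 after an offset of 8.57 (the 20% quantile), and probe sets with a mean under the 40% quantile (5.09) were left out. limma 3.58.1 in R 4.3.3 was run with a mean-variance trend, 2 residual and 6.02 prior degrees of freedom, two-sided, without a replicate block. A gene's brightest tested probe set stood for it. The code was tested on simulated data. Promoters came from RefSeq tables and were searched with Python 3.11.15.

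The members, gene lists and tests were chosen with earlier results of these data known. All members were named. Signals on every array were given for the member with the smallest adjusted p in each pathway. Those of Klkb1, Fga, Fgb, Fgg, Proz, Mbl1, Mbl2, Masp2 and Cfp were added after seeing values, as were Hc, C1s1 and Colec11. Of the related genes, the called ones and the smallest adjusted p of each role were named. Alternatives were other offsets, filters, scalings, model settings, probe set choices, a replicate block and each array left out.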

Additional observations from a re-analysis of the deposited data

How the results depend on the processing

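Precision is limited by 2 arrays per group, and a member missing the threshold is not shown to be equal between them. Of the alternative values of single members, 512 kept direction and side of the threshold, 3 passed it and 29 changed sign, all in members whose log2 fold change was at most 0.12 in size. Quantile normalization called 2 members and 2 member probe sets (Serpina10 and C4bp), beside 631 genes called in all, against 586 in the main run. Leaving out each array in turn gave 0 to 1 members and 0 to 1 member probe sets called, 1 to 12 related genes and 234 to 1236 genes in all (the highest without hepatectomy replicate 2), while the members' median ran from -0.15 to -0.02. Without the filter 218 genes and 1 related gene were called, and without a trend 173 and 1. The titles number the arrays 1 and 2 in each group. With that number as a replicate block 1189 genes, 8 related genes and 0 members were called (smallest adjusted p of a member 0.0578). Same-numbered arrays deviated together with r = 0.10 over 27022 probe sets, and 2 pairs cannot show a pairing. The cause of these changes was not tested.

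Signs turned after median centring for C8a (-0.0099), Cfi (-0.0024), F5 (-0.0702), Fgg (-0.0408), Serpinf2 (-0.0077), Serping1 (-0.0357), Vtn (-0.0771) and Hc (-0.0465), after quantile normalization for Serpind1 (0.0235), and when the probe sets of 1 gene were averaged for F5 (-0.0496), Masp1 (0.0885) and Vtn (-0.0062). With an array left out, the range crossed 0 for Kng1 (-0.1496 to 0.058), F11 (-0.0422 to 0.2776), F9 (-0.1986 to 0.0487), F5 (-0.0187 to 0.0511), Fga (-0.006 to 0.1815), Fgb (-0.0168 to 0.2562), Fgg (-0.0573 to 0.1487), Serpinc1 (-0.2092 to 0.018), Serpind1 (-0.1333 to 0.1211), Serpinf2 (-0.0036 to 0.161), Hrg (-0.1578 to 0.0217), Masp2 (-0.2897 to 0.0527), Serping1 (-0.0176 to 0.119) and Vtn (-0.1015 to 0.1202).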
